A study of Mus musculus with 6 samples.

Results

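The genes described here are 38 genes that help proteins fold or that sense and answer a failure of folding: 13 of the cytosolic heat shock response, 3 of the mitochondrial chaperone system and 22 of the endoplasmic reticulum (ER) and its stress response. They were taken from a fixed list of names and matched to probe sets whose platform annotation gave that 1 symbol, with the probe set of highest mean standing for its gene. Of the 38, 34 had such a probe set, among 22180 genes in all, and all 34 were bright enough to be tested. Hsp90ab1, Dnaja1, Hsf1 and Pdia4 had none and were not analysed here. The study measured gene expression on 6 microarrays of sorted LT-HSC, long-term haematopoietic stem cells, which live in the marrow and can restore every kind of blood cell in a recipient. The cells came from bone marrow of C57/BL6 mice and were sorted 4 months after a bone marrow transplantation, which both groups had. There were 3 control pools and 3 pools expressing NPMc+, a leukaemia-associated mutant of nucleophosmin that is mislocated to the cytoplasm. Each array holds a pool of animals. The sources used here do not give how the mutant was introduced, what promoter drove it, or the ages of the mice.

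Chaperones bind unfolded protein chains and release them in cycles driven by ATP. In the cytosol, misfolded protein frees the heat shock factor Hsf1, which binds heat shock elements and switches on Hsp70, Hsp90 and small heat shock protein genes. In the ER, 3 membrane sensors start the unfolded protein response: Ern1 (IRE1 alpha) splices Xbp1 mRNA, Eif2ak3 (PERK) phosphorylates eIF2 alpha so that general translation slows while Atf4 is translated, and Atf6 is cut to release a transcription factor. Haematopoietic stem cells are known for a low rate of protein synthesis and for a strict response to unfolded protein.

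None of the 34 genes passed the adjusted threshold, and neither did any other gene. In limma, a linear model with shrunken variances, 0 of 16635 genes (0%) had an adjusted p under 0.05, while 1492 had an unadjusted p under 0.05. At an unadjusted p under 0.05, 3 of the 34 were higher in NPMc+ (Ern1, Hspb1 and Pdia6), against 5.95% of all genes tested, and 1 was lower (Eif2ak3), against 3.02%. These shares are close to the background. The smallest adjusted p among the 34 was 0.364, and their median difference was 0.11 log2 units against 0.03 over all genes tested. A positive difference throughout means a higher log2 value in NPMc+, and 1 unit is a doubling. In the same model without the replicate number as a block, 2 of the 34, Ern1 and Calr, passed (adjusted p = 0.0146 and 0.0462), as did 828 of all 16635 genes. In that fit 8 of the 34 had an unadjusted p under 0.05 in the higher direction. The share of all genes at that unadjusted level is not given for it, so the count of 8 has no background beside it. That fit gives p-values that are too small, because it takes the 6 arrays as independent. Only the 3 differences within same-numbered pairs are independent, as described next.

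Same-numbered control and NPMc+ arrays are tied in the deposited values: their mean is the same in the 3 pairs for every probe set, within 6.5e-05 log2 units. An effect of the replicate number was thus already taken out, so the 3 differences within pairs carry all of the independent spread. It also means that the groups of a gene do not overlap exactly where its 3 pairs have 1 sign. That held in the higher direction for 9 of the 34 genes, against 17.4% of all genes tested, and in the lower direction for 2, against 12.8%. Errors below are limma's moderated standard errors (n = 3 pairs), which draw each gene's spread toward that of all genes and so can be larger or smaller than the spread of its own 3 differences.

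**Figure D1:**
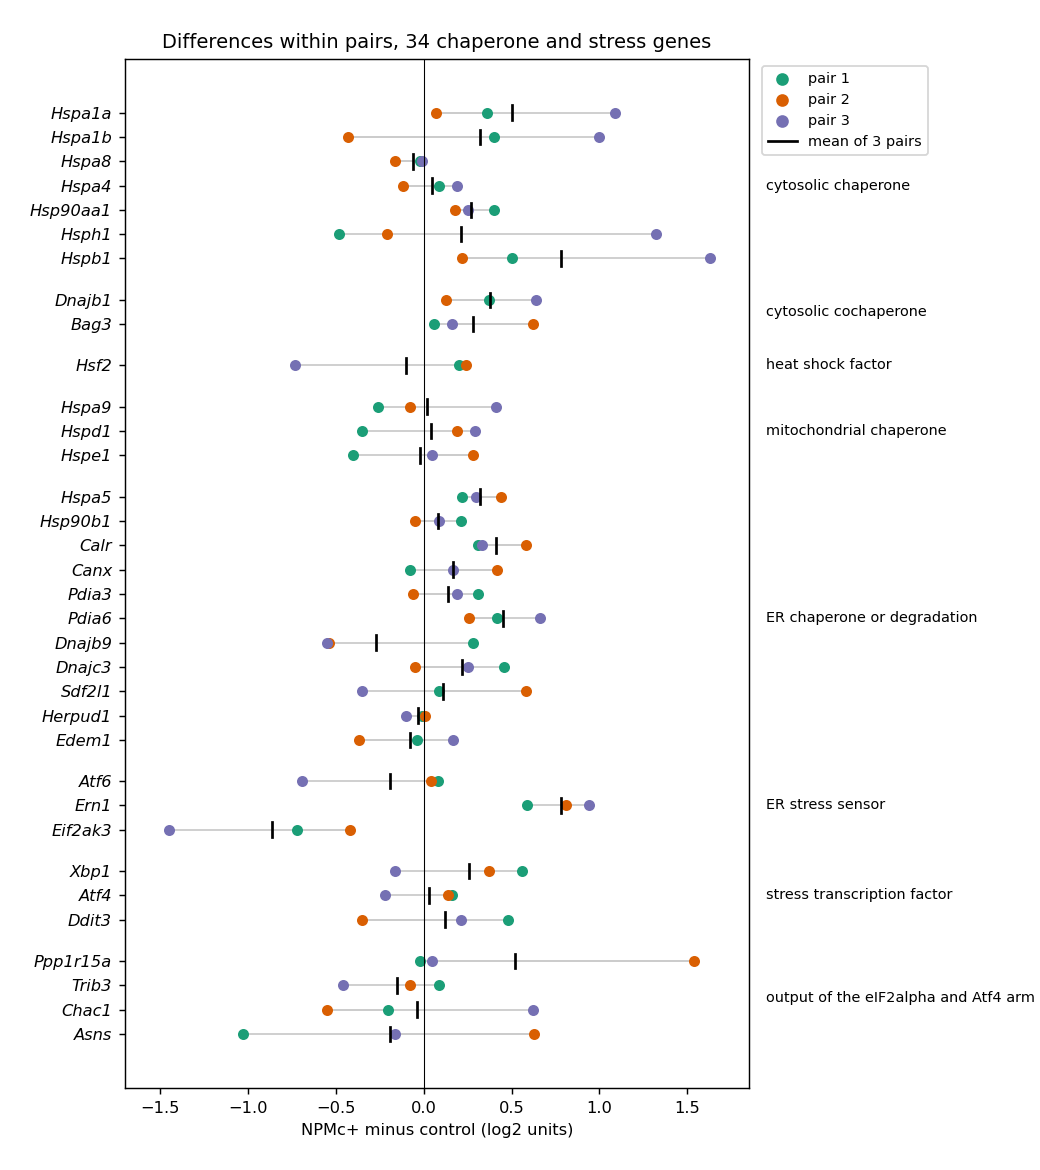
Each row is 1 gene, grouped by role. Points give NPMc+ minus control in log2 units within pair 1, 2 or 3, and the black bar gives the mean of the 3 pairs. Ern1 lies at 0.59 to 0.94 and Eif2ak3 at -1.45 to -0.42, while Hspb1, Hsph1, Hspa1a and Hspa1b have their highest point in pair 3.

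Of the 10 cytosolic genes measured, Hspb1 alone had an unadjusted p under 0.05 in limma, and none passed the adjusted threshold. Hspb1, the small heat shock protein HSP27, had the largest mean difference of the 10, 1.72-fold. Hspa1a and Hspa1b, the 2 stress-inducible Hsp70 genes, Hsph1, an Hsp110 that serves Hsp70 as nucleotide exchange factor, and Dnajb1, the J-protein that delivers clients to Hsp70, also had positive means. Hspb1, Hspa1a, Hspa1b, Hsph1 and Dnajb1 each had their highest difference in pair 3, while Hsph1 was lower in NPMc+ in the other pairs and Hspa1b in pair 2. The constitutive Hsp70 gene Hspa8 and the Hsp110 gene Hspa4 differed by less than their errors.

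The promoters of Hspa1a, Hspb1 and Hsph1 are shown because each holds a heat shock element and each gene had its highest difference in pair 3; Dnajb1 had it there too and holds no match. The windows are from RefSeq on GRCm38.p6 and run from 250 bases before to 50 after the annotated start, 5′ to 3′ on the gene's strand. Capitals mark each match to GAANNTTC or TTCNNGAA, the inverted pairs of heat shock units, searched on both strands (each reads the same on either one). Hspa1a lies at chr17:34972107-34972406 on the minus strand, Hspb1 at chr5:135887669-135887968 on the plus strand and Hsph1 at chr5:149636266-149636565 on the minus strand.
Hspa1a: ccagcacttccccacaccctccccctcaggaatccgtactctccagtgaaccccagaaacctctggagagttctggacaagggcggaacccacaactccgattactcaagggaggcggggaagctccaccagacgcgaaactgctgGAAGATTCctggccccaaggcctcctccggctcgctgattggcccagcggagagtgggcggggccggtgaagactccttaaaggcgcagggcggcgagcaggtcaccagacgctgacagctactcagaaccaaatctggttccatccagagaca
Hspb1: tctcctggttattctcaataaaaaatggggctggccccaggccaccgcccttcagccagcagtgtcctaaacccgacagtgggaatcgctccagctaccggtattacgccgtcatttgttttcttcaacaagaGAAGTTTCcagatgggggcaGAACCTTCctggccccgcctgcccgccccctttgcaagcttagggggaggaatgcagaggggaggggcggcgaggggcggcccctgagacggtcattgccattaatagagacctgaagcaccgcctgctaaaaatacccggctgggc
Hsph1: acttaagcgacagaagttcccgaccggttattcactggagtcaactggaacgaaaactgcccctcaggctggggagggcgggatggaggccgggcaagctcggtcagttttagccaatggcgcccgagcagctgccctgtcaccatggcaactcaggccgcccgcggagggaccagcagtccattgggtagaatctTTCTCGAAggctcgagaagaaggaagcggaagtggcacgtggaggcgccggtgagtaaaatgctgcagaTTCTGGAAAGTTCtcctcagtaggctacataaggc

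Hspa1a held 1 match, Hspb1 2 and Hsph1 3, the last 2 of which overlap. The windows of Hspa1a and Hspa1b, neighbouring copies with nearly the same coding sequence, were equal at 296 of 300 bases (98.7%), with the match at the same place, so their probe sets may not tell the transcripts apart. Of the 9 cytosolic genes with a window, 6 held a match (Bag3, Dnaja1, Hspa1a, Hspa1b, Hspb1 and Hsph1), as did 15.1% of all 32851 windows. A match is a description of these letters and does not show that a factor is bound. The 5 measured cytosolic genes with a match, Hspa1a and Hspa1b counted separately, differed by a median of 0.36, 0.07 and 1.09 log2 units in pairs 1, 2 and 3. The 3 measured cytosolic genes with a window and no match (Dnajb1, Hsf2 and Hspa4) differed by 0.20, 0.13 and 0.19. Members outside this group with a match were Hspd1, Hspe1, Asns and Eif2ak3, with mean differences of 0.04, -0.02, -0.19 and -0.86. In pair 3 they differed by 0.29, 0.05, -0.16 and -1.45. No test was made of these groups, since the members were chosen with results known. Over the 1860 other genes tested whose window holds a match, the median difference was 0.03, as over all genes.

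Hspb1 read 4.51, 4.65 and 3.94 log2 units in control pools 1, 2 and 3 and 5.01, 4.87 and 5.57 in the NPMc+ pools. The groups do not overlap, and control pool 3 is the lowest and NPMc+ pool 3 the highest of the 6. As the pair means are tied, these 2 extremes restate the large difference of pair 3. The difference was 0.78 ± 0.29 (unadjusted p = 0.0344, limma adjusted p = 0.517). It was 0.36 without pair 3 (unadjusted p = 0.192 in limma), its unadjusted p was 0.0575 without pair 1, and the mean of the gene's 2 probe sets gave 0.53 (unadjusted p = 0.0806 in limma); the probe set not used here is dimmer and differed by 0.27. Hspb1 is a dim probe set, at the 44.7th percentile of mean level.

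Hspa1a read 9.25, 9.39 and 8.88 in the control pools and 9.61, 9.46 and 9.97 in the NPMc+ pools. The groups do not overlap, by a margin of 0.07 in pair 2 and of 1.09 in pair 3. The mean difference was 0.50 ± 0.24 (limma adjusted p = 0.613), and 0.21 without pair 3. Hspa1b had pair differences of 0.40, -0.43 and 1.0, so that its groups overlap, with a mean of 0.32 ± 0.29 that turned to -0.02 without pair 3.

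Hsph1 read 8.64, 8.51 and 7.74 in control and 8.16, 8.29 and 9.06 in NPMc+. It was lower in NPMc+ in pairs 1 and 2 and higher by 1.32 in pair 3, so its mean of 0.21 ± 0.36 turned to -0.35 without that pair. Dnajb1 was higher in each pair, by 0.37, 0.13 and 0.64, with a mean of 0.38 ± 0.19 (limma adjusted p = 0.627). Hsp90aa1, the inducible cytosolic Hsp90, had pair differences of 0.40, 0.18 and 0.25 and a mean of 0.27 ± 0.18 (95% interval -0.15 to 0.70).

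Bag3, which couples Hsp70 to autophagy, was higher in each pair, by 0.06, 0.62 and 0.16 (mean 0.28 ± 0.20). Hsf2, the second heat shock factor, read 6.14, 6.12 and 6.61 in control and 6.34, 6.36 and 5.88 in NPMc+. It differed by 0.20 and 0.24 in pairs 1 and 2 and by -0.73 in pair 3. Hspa8, the constitutive Hsp70 that most client proteins meet first, differed by -0.06 ± 0.18 (95% interval -0.48 to 0.36), and its 4 probe sets differed by -0.06, -0.04, 0.13 and 0.21. Hspa4 differed by 0.05 ± 0.18 (95% interval -0.38 to 0.48).

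**Figure D2:**
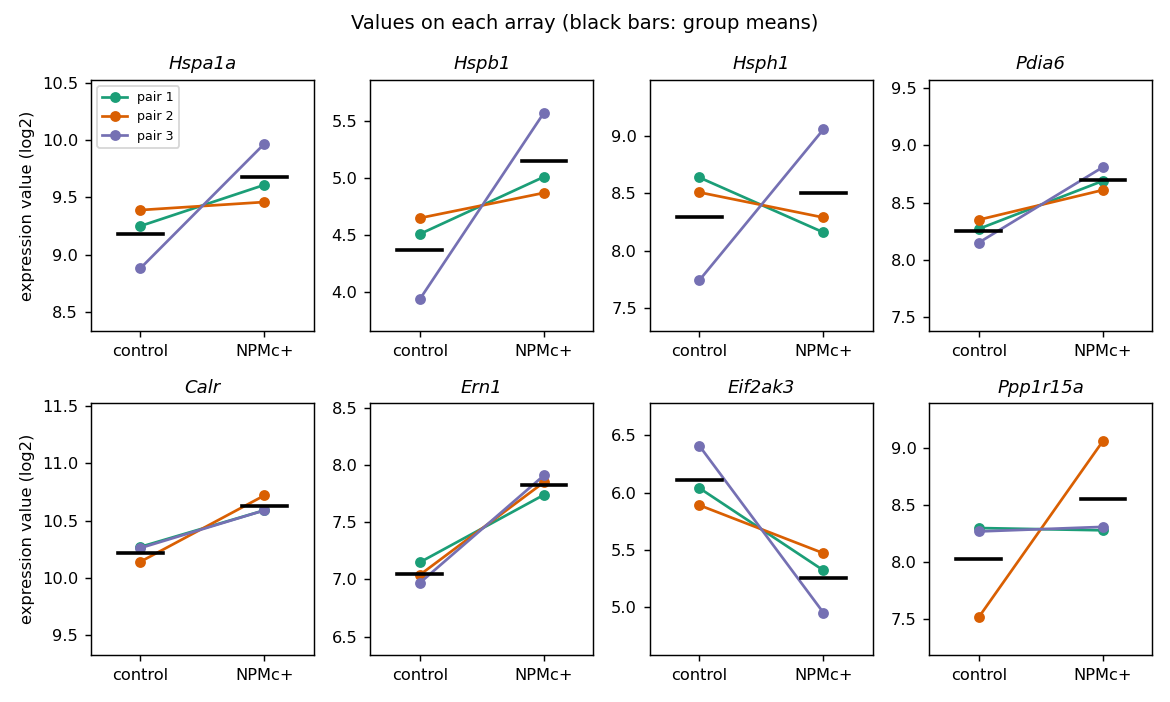
Expression values in log2 units on each array for 8 genes, with lines joining same-numbered control and NPMc+ arrays and black bars at the group means; every panel spans the same range. Ern1 and Pdia6 are higher and Eif2ak3 is lower in NPMc+ in 3 of 3 pairs, whereas Hsph1 is higher in pair 3 and Ppp1r15a by 1.54 in pair 2.

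Pair 3 held the largest difference, by size, of 7 of the 10 cytosolic genes and of 9 of the 21 ER genes, against 35.5% of all genes tested. The cytosolic medians were 0.28, 0.10 and 0.44 in pairs 1, 2 and 3, and the medians of all genes tested 0.00, 0.05 and 0.03. Sex-linked genes and cell markers also differed between NPMc+ and control within pairs, by amounts that varied from pair to pair. Xist, which is transcribed from the inactive X chromosome of females, differed by -5.44 and -5.39 in pairs 1 and 2 and by 0.48 in pair 3. The Y-linked genes were instead highest in pair 1: Eif2s3y differed by 5.49, 0.36 and -0.79, Uty by 4.68, 0.93 and 0.35, and Kdm5d by 3.48, 1.29 and -0.67. The 12 neutrophil markers had medians of -1.74, -1.44 and -0.04. The 16 immediate early genes, which respond to the handling of cells, had medians of 0.30, 0.52 and 0.17. The part of sex, of other cells and of handling in the chaperone differences was not tested.

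No difference in the 3 mitochondrial chaperones was detectable at this precision. Hspd1 and Hspe1 encode the Hsp60 chamber and its Hsp10 lid and share a promoter between them: their windows overlap by 285 bases, and both hold heat shock elements. They differed by 0.04 ± 0.21 (95% interval -0.45 to 0.54) and -0.02 ± 0.21 (-0.52 to 0.47). Hspd1 read 11.13, 10.86 and 10.81 in control and 10.78, 11.05 and 11.10 in NPMc+, and Hspe1 10.20, 9.87 and 9.98 against 9.80, 10.14 and 10.03. Both were lower in NPMc+ in pair 1 and higher in pairs 2 and 3. Hspa9, the mitochondrial Hsp70, differed by -0.26, -0.08 and 0.41 (mean 0.02 ± 0.21).

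Among the folding genes of the ER, Pdia6, Calr and Hspa5 were higher in NPMc+ in 3 of 3 pairs. Pdia6, a disulfide isomerase, was 1.37-fold higher. Calr, the lectin chaperone calreticulin, was 1.33-fold and Hspa5 (BiP), the Hsp70 of the ER that holds the sensors inactive, 1.25-fold higher. Of 11 genes of folding, quality control and degradation, 8 had a positive mean, as had 9131 of all 16635 genes tested, and the median was 0.14 against 0.03. The 3 genes higher in 3 of 3 pairs compare with 17.4% of all genes. At an unadjusted p under 0.05 in limma, 1 of the 11 (Pdia6) was higher and 0 lower, against 5.95% and 3.02% of all genes.

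The promoters of Hspa5 and Pdia6 are printed because 6 genes of this group carry the ER stress element, CCAAT and CCACG held 9 bases apart. This element is known to be bound by NF-Y together with the released part of Atf6. The windows are again from RefSeq on GRCm38.p6, with the element in capitals, and lie at chr2:34771840-34772139 for Hspa5 and chr12:17266339-17266638 for Pdia6, both on the plus strand.
Hspa5: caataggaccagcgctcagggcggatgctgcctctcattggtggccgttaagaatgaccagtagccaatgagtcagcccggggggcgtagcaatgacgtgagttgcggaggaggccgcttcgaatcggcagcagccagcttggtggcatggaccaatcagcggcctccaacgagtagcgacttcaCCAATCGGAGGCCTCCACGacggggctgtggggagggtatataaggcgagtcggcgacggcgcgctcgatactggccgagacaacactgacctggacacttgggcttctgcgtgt
Pdia6: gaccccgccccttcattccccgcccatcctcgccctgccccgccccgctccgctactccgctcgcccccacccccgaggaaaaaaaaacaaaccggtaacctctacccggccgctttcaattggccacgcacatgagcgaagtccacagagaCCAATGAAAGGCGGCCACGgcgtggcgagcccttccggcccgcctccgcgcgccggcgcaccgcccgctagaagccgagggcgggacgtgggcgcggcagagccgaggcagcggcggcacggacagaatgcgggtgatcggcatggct

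The 7 elements in all members are set out in the element's own direction, with its fixed letters in capitals and the 9 free bases in lower case. Calr lies at chr8:84847075-84847093, Canx at chr11:50325800-50325818, Dnajc3 at chr14:118937827-118937845, Hspa5 at chr2:34772025-34772043 and Pdia6 at chr12:17266491-17266509. Hsp90b1 has 1 element at chr10:86705533-86705551 and another at chr10:86705638-86705656. Of these genes Calr, Canx and Hsp90b1 are on the minus strand.
Calr: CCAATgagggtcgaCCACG
Canx: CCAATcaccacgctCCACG
Dnajc3: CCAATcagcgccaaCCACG
Hspa5: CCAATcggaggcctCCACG
Pdia6: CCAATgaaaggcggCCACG
Hsp90b1, nearer the start: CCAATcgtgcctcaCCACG
Hsp90b1, farther from it: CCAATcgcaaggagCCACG

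Both strands were searched, and the element was in 0.119% of all 32851 windows, in 6 of the 21 ER genes with a window and in 0 of the 9 cytosolic ones. Its last 5 letters alone, CCACG, are in 32.8% of all windows, in 16 of the 21 and in 5 of the 9, and lie within each element. The XBP1-type element TGACGTG was found in 1 member, Hspa5, and in 2.01% of all windows. The 6 genes with the full element had positive means in 6 of 6, from 0.08 to 0.45, with medians of 0.27, 0.34 and 0.28 in pairs 1, 2 and 3. The 5 other genes of this group with a window and a probe set (Pdia3, Dnajb9, Sdf2l1, Herpud1 and Edem1) had means from -0.27 to 0.14 and medians of 0.09, -0.06 and -0.10. Of the 14 genes outside the list that have it and were tested, 8 were positive and 6 negative, with a median of 0.04. No test was made of these groups, since the members were chosen with results known.

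**Figure D3:**
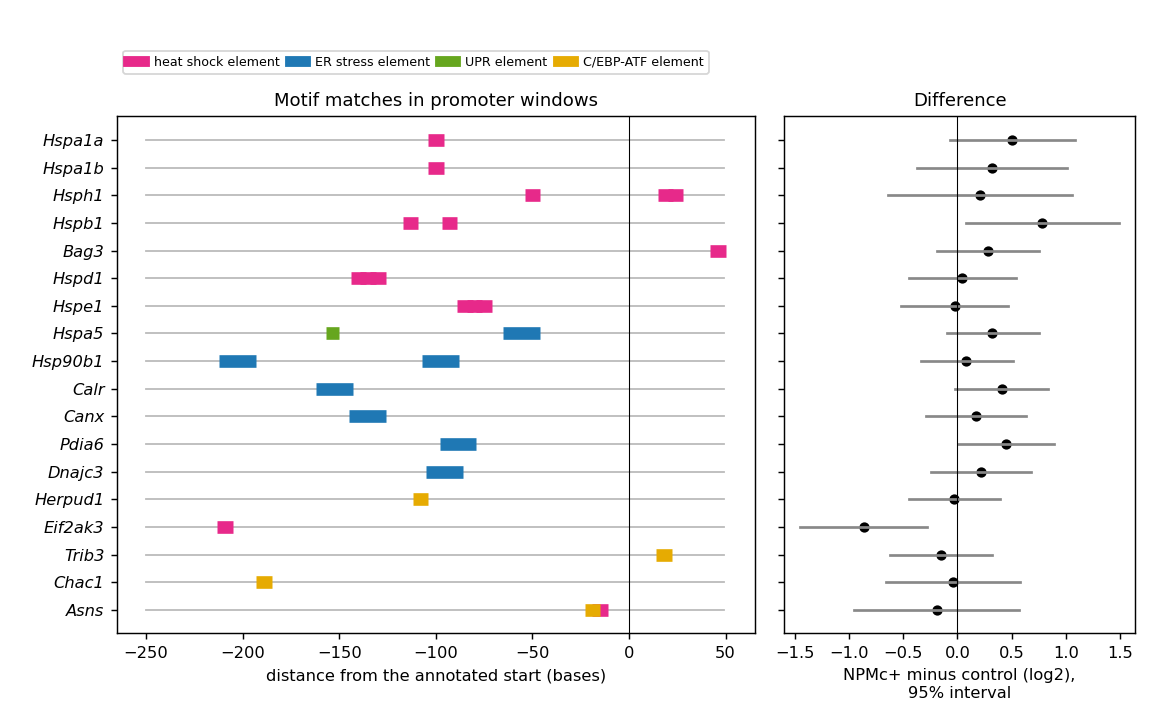
On the left, grey lines are the promoter windows of the 18 measured members with a match, and coloured blocks the matches, by distance in bases from the annotated start; on the right is each gene's NPMc+ minus control in log2 units with its 95% interval. The 6 genes with an ER stress element (blue) lie right of 0, and the intervals of Pdia6, Hspb1 and Eif2ak3 do not reach 0.

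Pdia6 read 8.27, 8.35 and 8.15 in control and 8.69, 8.61 and 8.81 in NPMc+. The groups do not overlap. The difference was 0.45 ± 0.18 (95% interval 0.01 to 0.89, unadjusted p = 0.0473, limma adjusted p = 0.552), and it ceased to reach that level after quantile normalization (0.41, unadjusted p = 0.0637), with a filter at the 50th percentile of mean level (unadjusted p = 0.0622) or without any 1 of the pairs. Calr read 10.27, 10.14 and 10.26 in control and 10.59, 10.72 and 10.59 in NPMc+, also without overlap, with a difference of 0.41 ± 0.18 (unadjusted p = 0.0602, limma adjusted p = 0.590).

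Hspa5 read 9.46, 9.35 and 9.42 in control and 9.68, 9.79 and 9.72 in NPMc+. The groups do not overlap, the pairs were close to each other, and the difference was 0.32 ± 0.18 (limma adjusted p = 0.655). Hsp90b1 (Grp94), the Hsp90 of the ER that folds integrins and Toll-like receptors, differed by 0.21, -0.05 and 0.09 (mean 0.08 ± 0.18). Canx, the membrane-bound partner of calreticulin, differed by -0.08, 0.42 and 0.17, and Pdia3, the disulfide isomerase that works with both, by 0.31, -0.06 and 0.19.

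The remaining ER genes lay on both sides. Dnajc3 (p58IPK), a J-protein cofactor of BiP, differed by 0.46, -0.05 and 0.25, and Sdf2l1, a BiP-associated protein, by 0.09, 0.58 and -0.35. Dnajb9 (ERdj4), a J-protein and a known target of spliced Xbp1, read 9.69, 10.10 and 10.10 in control and 9.96, 9.56 and 9.55 in NPMc+, lower in NPMc+ in pairs 2 and 3 (mean -0.27 ± 0.23). Herpud1, a scaffold of ER-associated degradation, differed by at most 0.10 in any pair. Edem1, which hands misfolded glycoproteins to degradation, differed by -0.08 ± 0.19, and its dimmer second probe set by -0.32.

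Of the 3 sensors of ER stress, Ern1 was higher and Eif2ak3 lower in NPMc+ in 3 of 3 pairs, Atf6 was mixed, and none passed the adjusted threshold. Ern1 mRNA was 1.72-fold higher in NPMc+ and had the smallest p of the 34 genes, and Eif2ak3 mRNA was 1.82-fold lower and had the second smallest. These are mRNA levels of the sensors; whether the kinases were active is not measured by an array. Ern1 read 7.15, 7.04 and 6.97 in the control pools and 7.74, 7.85 and 7.91 in the NPMc+ pools. The groups lie 0.59 log2 units apart at their nearest, and the difference was 0.78 ± 0.18 (95% interval 0.35 to 1.22, unadjusted p = 0.00418, limma adjusted p = 0.364). It was 0.70 to 0.88 when any 1 pair was left out, with an unadjusted p of 0.0142 to 0.0245 in limma.

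Eif2ak3 read 6.04, 5.89 and 6.41 in control and 5.32, 5.47 and 4.95 in NPMc+. Its promoter window holds a heat shock element match, as do 15.1% of all windows. The groups do not overlap, with control pool 3 the highest and NPMc+ pool 3 the lowest, which again restates the large difference of pair 3. The difference was -0.86 ± 0.24 (95% interval -1.45 to -0.28, unadjusted p = 0.0104, limma adjusted p = 0.429), and -0.57 without pair 3 (unadjusted p = 0.0572 in limma). The gap between the Ern1 and Eif2ak3 differences was 1.31, 1.23 and 2.40 in pairs 1, 2 and 3 (mean 1.65, SD 0.65, n = 3). With 3 pairs an exact two-sided permutation test of signs cannot go below p = 0.25, and the pair of genes was picked after its values were seen. Atf6, the sensor that becomes a transcription factor, differed by 0.08, 0.04 and -0.69 (mean -0.19 ± 0.22).

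None of the 3 stress transcription factors measured downstream of the sensors had an unadjusted p under 0.05 in limma, the smallest being 0.266 for Xbp1. Xbp1, whose spliced form drives chaperone and degradation genes and which plasma cells need, read 7.38, 7.48 and 7.74 in control and 7.94, 7.84 and 7.58 in NPMc+. It was higher in NPMc+ in pairs 1 and 2 and lower in pair 3, with a mean of 0.26 ± 0.21 (limma adjusted p = 0.787). The array values used here do not tell spliced from unspliced Xbp1. Atf4, the factor translated when eIF2 alpha is phosphorylated, differed by 0.16, 0.14 and -0.22 at the mRNA level, and Ddit3 (CHOP), a factor tied to death under prolonged stress, by 0.48, -0.35 and 0.21.

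The targets of the Atf4 arm varied between pairs without a shared direction. The promoters of 4 members hold a match to TGATGNAA, the composite site of C/EBP and ATF factors, as do 3.97% of all windows. The matches are shown in capitals with 6 bases on either side, in the motif's direction, at chr6:7693219-7693238 for Asns, chr2:119351043-119351062 for Chac1, chr8:94386311-94386330 for Herpud1 and chr2:152344033-152344052 for Trib3 (GRCm38.p6). In Asns the site overlaps a heat shock element match.
Asns: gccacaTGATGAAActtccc
Chac1: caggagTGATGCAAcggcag
Herpud1: gcgggcTGATGCAAcccgcc
Trib3: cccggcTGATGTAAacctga

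These 4 genes had mean differences of -0.19 ± 0.32, -0.04 ± 0.26, -0.03 ± 0.17 and -0.15 ± 0.20. Asns, asparagine synthetase, read 8.11, 7.28 and 7.68 in control and 7.09, 7.92 and 7.52 in NPMc+, lower by 1.03 in pair 1 and higher by 0.63 in pair 2. Chac1, which breaks down glutathione, differed by -0.20, -0.55 and 0.62, and Trib3, a pseudokinase that binds Akt and Atf4, by 0.09, -0.08 and -0.46; both are dim, at the 37.5th and 29.6th percentiles of mean level.

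Ppp1r15a (GADD34), which brings the phosphatase back to eIF2 alpha and so restores translation, read 8.30, 7.52 and 8.27 in control and 8.28, 9.06 and 8.31 in NPMc+. Its difference was -0.02, 1.54 and 0.05, so its mean of 0.52 ± 0.33 came from pair 2 and was 0.01 without it. Pair 2 is also where the immediate early genes were highest, with a median of 0.52 and Jun, an AP-1 factor, at 1.02; their part in the value of Ppp1r15a was not tested.

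Cytosolic against ER genes, the contrast of median differences was 0.12, 0.06 and 0.35 in pairs 1, 2 and 3, a mean of 0.18 with an SD of 0.15 (n = 3). The median difference of the 10 cytosolic genes was 0.28 and that of the 21 ER genes 0.11, against 0.03 for all genes tested. Of the cytosolic genes 8 were positive and 2 negative, and of the ER genes 13 and 8, against 9131 and 7504 of all genes tested. At an unadjusted p under 0.05 in limma there were 1 higher and 0 lower among the cytosolic genes, and 2 higher and 1 lower among the ER genes, close to the 5.95% higher and 3.02% lower of all genes tested. The contrast was largest in pair 3 and was 0.09 without it.

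**Figure D4:**
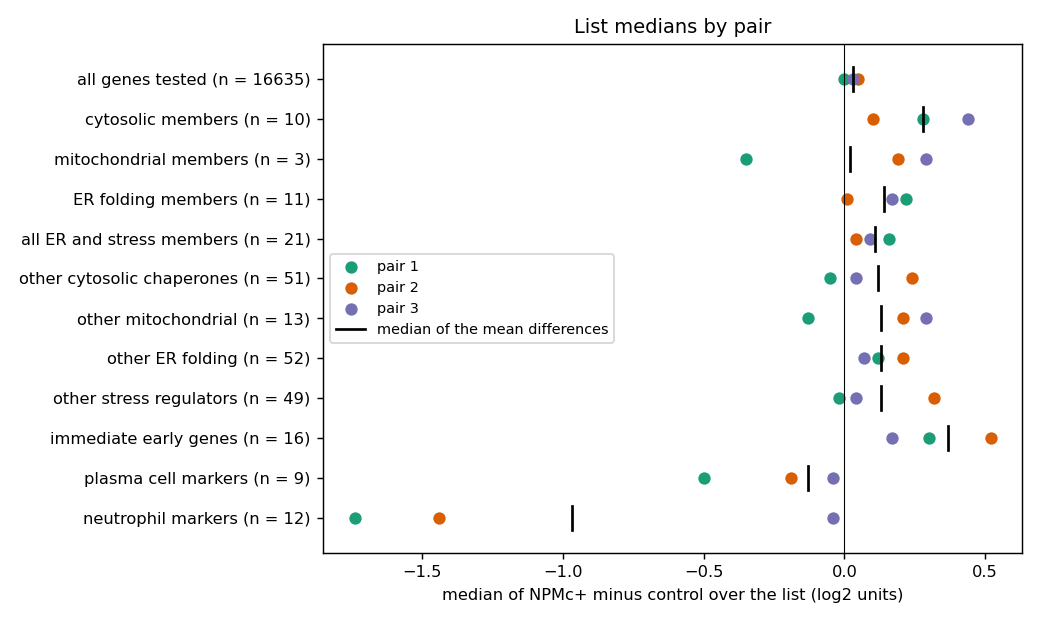
Median of NPMc+ minus control in log2 units over each gene list, by pair (points) and for the mean differences (black bars), with the number of genes tested. The cytosolic members lie at 0.10 to 0.44 and the ER members at 0.04 to 0.16, while the neutrophil markers lie at -1.74 and -1.44 in pairs 1 and 2 and at -0.04 in pair 3.

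Of 164 other genes of the same pathways that were tested, 120 were positive, as were 9131 of all 16635 genes tested (median 0.12, against 0.03). In pairs 1, 2 and 3, 79, 117 and 104 of the 164 were positive. Their medians were -0.01, 0.24 and 0.06 in these pairs, so pair 2 was highest and pair 1 showed no shift. In limma 12 were higher at an unadjusted p under 0.05, 0 were lower, and 0 passed the adjusted threshold. The higher count is near the 5.95% of all genes, in the whole and in the cytosolic, ER and regulator lists taken singly. In the mitochondrial list it lies above that share. In the ER list 2 of 52 were higher at that level: Hyou1 (Grp170), an Hsp110-like exchange factor of BiP, was 1.58-fold higher (0.66 ± 0.20, limma adjusted p = 0.453) and Prkcsh, a subunit of the glucosidase that starts the calnexin cycle, 1.63-fold (0.71 ± 0.19, adjusted p = 0.420). Hyou1 read 7.30, 7.06 and 7.02 in control and 7.61, 7.85 and 7.89 in NPMc+, and Prkcsh 6.62, 6.40 and 6.66 against 7.21, 7.43 and 7.17. Neither gene's groups overlap.

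Among 51 other cytosolic chaperones and cochaperones, 3 were higher at that level, against 5.95% of all genes tested. They were the myosin chaperone Unc45a at 1.51-fold, the J-protein Dnajc5 at 1.44-fold and the Hsp70 regulator Bag4 at 1.36-fold. Of 13 mitochondrial genes, 3 were higher: the protease subunit Spg7 at 1.51-fold, the iron-sulfur cochaperone Hscb at 1.46-fold and the disaggregase Clpb by 0.49 log2 units. This is above the share of all genes, and 53.8% of the 13 had 1 sign in the 3 pairs, against 30.2% of all genes. No test was made of this short list. Of 49 other regulators and targets of the stress response, 4 were higher, against the same 5.95% of all genes. Phgdh, the first enzyme of serine synthesis and an Atf4 target, was 1.65-fold higher (0.72 ± 0.18, limma adjusted p = 0.398). The others were the death receptor Tnfrsf10b at 1.47-fold, the eIF2 alpha kinase Eif2ak4 by 0.49 log2 units and Vegfa at 1.37-fold. Phgdh read 6.40, 6.22 and 6.32 in control and 6.95, 7.13 and 7.03 in NPMc+, without overlap. Mthfd2 and Slc7a11, also Atf4 targets, differed most in pair 2, by 1.49 and -1.79.

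Markers of other cells differed between the groups as well. Fewer cells of a type and less RNA per cell cannot be told apart in such pools. Because the pair means are tied, the ranges of a list have the same width in control and NPMc+, up to rounding. They do not show the full spread between pools. The mean log2 level of 16 LT-HSC identity genes was 6.02 to 6.19 in the control pools and 6.62 to 6.80 in the NPMc+ pools, that of 11 B cell markers 5.65 to 5.74 and 4.39 to 4.48, and that of 12 neutrophil markers 9.59 to 10.46 and 8.69 to 9.56. The 5 neutrophil precursor markers were not lower, at 10.48 to 10.84 in control and 10.61 to 10.96 in NPMc+, which overlap. Their medians were 0.55, 0.24 and -0.18 in pairs 1, 2 and 3. Plasma cells, which carry a large ER and high Xbp1, had 9 markers at 4.95 to 5.16 in control and 4.39 to 4.60 in NPMc+. Their median difference was only -0.13, with 7 negative and 2 positive. Of those 9, 3 were lower at an unadjusted p under 0.05 in limma (Jchain at 3.71-fold, Irf4 at 3.0-fold and Sdc1 at 1.76-fold) and 1 was higher (Fkbp11 at 1.38-fold). The ER folding genes had a positive median in the same pools; the part of these cells in it was not tested. Procr, the surface receptor EPCR used to recognise these stem cells, had means of 5.33 and 5.41. The 8 monocyte and macrophage markers were at 7.31 to 7.49 and 6.53 to 6.72, the 7 erythroid markers at 6.14 to 6.52 and 5.30 to 5.68, the 11 T and NK cell markers at 5.61 to 5.79 and 4.87 to 5.06, and the 9 megakaryocyte markers at 5.66 to 5.89 and 6.68 to 6.91. The 9 cycling cell markers were at 8.75 to 9.03 and 8.74 to 9.02.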

How the data were processed

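The values are log2 expression values of 41345 probe sets on 6 arrays, as the authors deposited them; the submitters' processing notes name RMA, with no version, and the sources used here give no later step. Array medians were 3.90 to 3.99. About 5 ng of total RNA was amplified, per the labels' protocols. Of the probe sets, 23521 had 1 gene symbol, 1814 several and 16010 none, in a platform annotation. Each gene was represented by its probe set of highest mean, and genes below the 25th percentile of mean level were left out, so that 16635 were tested. limma 3.58.1 (lmFit, eBayes, two-sided) under R 4.3.3 fitted all genes with the replicate number as a block (2 residual and 4.537 prior degrees of freedom), with Benjamini-Hochberg adjustment across those genes and a threshold of 0.05. Arrays that share a number deviated from the means of their groups with a correlation of -1 in each pair, because their mean is tied, and the block follows from that tie rather than from a stated pairing of animals. The fit was tested on simulated data. Nothing beyond the labels' description of pools says how the replicates were separated. The p-values measure the spread of the 3 differences within same-numbered pairs of these pools, drawn toward that of all genes. Spread that the pools of a pair had in common is no longer in the values and is not measured. Motifs were searched in 32851 RefSeq windows (GRCm38.p6), of which 32 members had at least 1. All members are named, and of the other pathway lists those at an unadjusted p under 0.05, as are the marker genes of plasma cells at that level; Mthfd2, Slc7a11 and Jun were chosen after their values were seen. The members, lists, motifs and tests were chosen with earlier results of these data known. Alternatives were no block, each pair left out, quantile normalization, no filter, a filter at the 50th percentile, the mean of probe sets and an intensity trend. Figures used matplotlib 3.10.9 in Python 3.11.15.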

Additional observations from a re-analysis of the deposited data

How the results depend on the processing

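The number of pairs limits the precision; the smallest standard error among the members was 0.17 log2 units. Of the 9 alternatives run, some could not move the cytosolic and ER medians or their contrast (0.28, 0.11 and 0.18 log2 units). Loss of the block, no filter and an intensity trend leave each gene's mean difference as it is. The stricter filter dropped only Trib3 and gave a contrast of 0.14. Leaving out 1 pair gave medians of 0.22 to 0.37 and 0.06 to 0.12 and a contrast of 0.09 to 0.23. Quantile normalization gave 0.23, 0.08 and 0.13, and the mean of probe sets 0.28, 0.11 and 0.16. Without the replicate block, the genes past the adjusted threshold were 828, the members past it 2 and the members higher at an unadjusted p under 0.05 were 8. The p-values of that fit are too small, as described above. With 1 pair left out, the genes past the adjusted threshold were 0 to 24, the members higher at an unadjusted p under 0.05 were 1 to 4 and those lower 0 to 1. Shares of all genes at that unadjusted level are not given for these alternatives, so their counts of members have no background beside them. Ern1 was among the higher members under all 9 alternatives, and Eif2ak3 the lower one under all but the loss of pair 3. The sign of 16 members turned when a pair was left out, none of them at an unadjusted p under 0.05 in the fit of all pairs. In log2 units the ranges were Asns -0.59 to 0.24, Atf4 -0.04 to 0.15, Atf6 -0.32 to 0.06, Chac1 -0.37 to 0.21, Ddit3 -0.07 to 0.35, Edem1 -0.21 to 0.06, Herpud1 -0.05 to 0.00, Hsf2 -0.26 to 0.22, Hspa1b -0.02 to 0.70, Hspa4 -0.02 to 0.14, Hspa9 -0.17 to 0.17, Hspd1 -0.08 to 0.24, Hspe1 -0.17 to 0.16, Hsph1 -0.35 to 0.55, Sdf2l1 -0.13 to 0.34 and Trib3 -0.27 to 0.01. The mean of its probe sets turned Hspa8 to 0.06. Quantile normalization turned no member's sign. A change of filter, an intensity trend or the loss of the block leaves each gene's mean difference as it is, so those fits could not turn a sign. The cause of the turns in sign was not tested.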
